A study of Mus musculus with 8 samples.

Results

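The cells described here are 250 carcinoma cells of a mouse pancreatic tumor that were rich in the transcripts of Reg1, Reg3b, Reg3g, Tff3, Ly6k, Spink4 and Aadac. They make up 8.89% of the cell barcodes of a medium-size tumor, and the whole series, with a second and larger tumor of 1533 barcodes, holds 4345. Each barcode, called a column below, is a droplet of 10x Chromium 3′ sequencing. Its values are counts of UMIs, the random tags that let copies of the same captured mRNA be counted once. The score that chose the members was the mean over these 7 genes of log2(1 + UMIs per 10000 of the column). Columns with a UMI for 5 or more of 11 macrophage genes were not eligible, which left 2495 columns to rank. The members are therefore high in the 7 genes by construction, and their values in the medium-size tumor are a description.

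The series holds 2 untreated tumors of the KPC mouse, 1 of medium and 1 of large size. KPC mice carry alleles that Pdx-1-Cre switches on in cells of the developing pancreas, LSL-Trp53R172H/+ among them, and both tumors share this genotype. The age of the mice is not given in the sources used here. Each tumor has 4 technical replicates, which are pooled in 1 table and are not told apart by their barcodes, so a tumor counts as 1 sample. No test across samples was possible, no p-value is given, and each 95% interval covers the error of counting UMIs or columns only.

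The Reg genes encode small secreted proteins of the C-type lectin family. Reg3b and Reg3g bind bacteria in the gut lumen, and Reg1 was found in regenerating pancreatic islets and in acinar cells under stress. Trefoil factors such as Tff3 are secreted with mucus and help to repair epithelia. Spink4 encodes a protease inhibitor of goblet cells, Aadac an esterase of the endoplasmic reticulum, and Ly6k a surface protein held by a lipid anchor. Interleukin-22 and STAT3 are known to raise Reg3 transcripts in intestinal epithelium.

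The 3 Reg genes of the score lie within 1 cluster of Reg genes on chromosome 6 (GRCm38 coordinates, GENCODE M21 annotation). Reg3b is at chr6:78370657-78373466 on the plus strand, Reg1 at chr6:78422711-78428667 on the plus strand and Reg3g at chr6:78466269-78468872 on the minus strand. Between them lie Reg3d, Reg3a and Reg2. The members held 5071 UMIs of Reg3b, 6356 of Reg1 and 3467 of Reg3g. In the same columns Reg2 had 19 UMIs, Reg3a 6 and Reg3d 0. Levels are given below as CPM, the UMIs of a gene per 1000000 UMIs of all genes summed over the columns of a group, and a count of 0 in the members allows up to 1.98 CPM. Reg2 stood at 12.5 CPM in members and 0.739 CPM in the other epithelial columns defined below, and Reg3a at 3.95 against 0.123 CPM, so these low neighbours too had a higher level in the members. The 100 bases before the RefSeq start of the 6 genes (GRCm38.p6, strand of the gene, 5′ to 3′) are shown because the cluster holds genes with many UMIs in the members and genes with almost none. Capitals mark the motif TATAAA, the sequence of a TATA box. The windows are chr6:78370785-78370884 for Reg3b, chr6:78425883-78425982 for Reg1, chr6:78468875-78468974 for Reg3g, chr6:78405055-78405154 for Reg2, chr6:78380609-78380708 for Reg3a and chr6:78378866-78378965 for Reg3d.
Reg3b: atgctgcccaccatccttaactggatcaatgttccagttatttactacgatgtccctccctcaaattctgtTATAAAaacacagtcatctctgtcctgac
Reg1: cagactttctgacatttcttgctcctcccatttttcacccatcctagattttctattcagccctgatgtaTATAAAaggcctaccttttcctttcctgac
Reg3g: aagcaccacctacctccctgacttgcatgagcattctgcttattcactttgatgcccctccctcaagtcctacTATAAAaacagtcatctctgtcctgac
Reg2: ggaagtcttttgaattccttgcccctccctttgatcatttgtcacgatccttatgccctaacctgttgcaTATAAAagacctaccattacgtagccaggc
Reg3a: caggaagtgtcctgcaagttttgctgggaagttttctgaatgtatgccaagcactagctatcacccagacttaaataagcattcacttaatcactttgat
Reg3d: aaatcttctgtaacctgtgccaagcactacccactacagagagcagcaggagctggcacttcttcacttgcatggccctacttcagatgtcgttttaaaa

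TATAAA stood 29 bases before the start of Reg3b, 30 before Reg1, 27 before Reg3g and 30 before Reg2, and it was not in the windows of Reg3a and Reg3d. Of 32851 mouse promoters in the same RefSeq table, 5.56% held TATAAA on either strand of this window. The motif was thus shared by the 3 Reg genes of the score and by Reg2, which had few UMIs. The window of Reg3g matched that of Reg3b at 73 aligned bases, whereas Reg1 matched it at 52 and the promoter of Aadac, on chromosome 3, at 46. A STAT motif, TTCNNNGAA, and an AP-1 motif, TGANTCA, were searched on both strands in the same windows and were in none of the 6, where 2.55% and 2.73% of all promoters held them. Within 250 bases, TTCNNNGAA was found once each before Reg3b and Reg3d and TGANTCA once before Reg1, against 7.02% and 6.75% of all promoters. These matches describe letters in a window and not binding.

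The score fell without a gap from member to non-member. It was 4.56 in the highest member, 2.81 in the median member and 2.10 in the lowest, and the highest non-member had 2.08. There were 23 members within 0.1 of the lowest member and 24 non-members within 0.1 below it, so the members are the upper end of a range. The filter on macrophage genes left out 12 columns with a score at or above the lowest member. A member had a UMI for a median of 5 of the 7 rule genes and for at least 3. All 7 were seen in 23 members, and 188 members (75.2%) had 5 or more. The comparison group was 2058 non-member columns that had a UMI for at least 4 of 11 epithelial markers and passed the macrophage filter, called other epithelial columns below. They had a median of 1 rule gene per column, and 55 of them (2.67%) had 5 or more. Among 113 columns with at least 8 macrophage genes and fewer than 4 epithelial markers, the macrophage columns, the highest number of rule genes was 2.

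**Figure D1:**
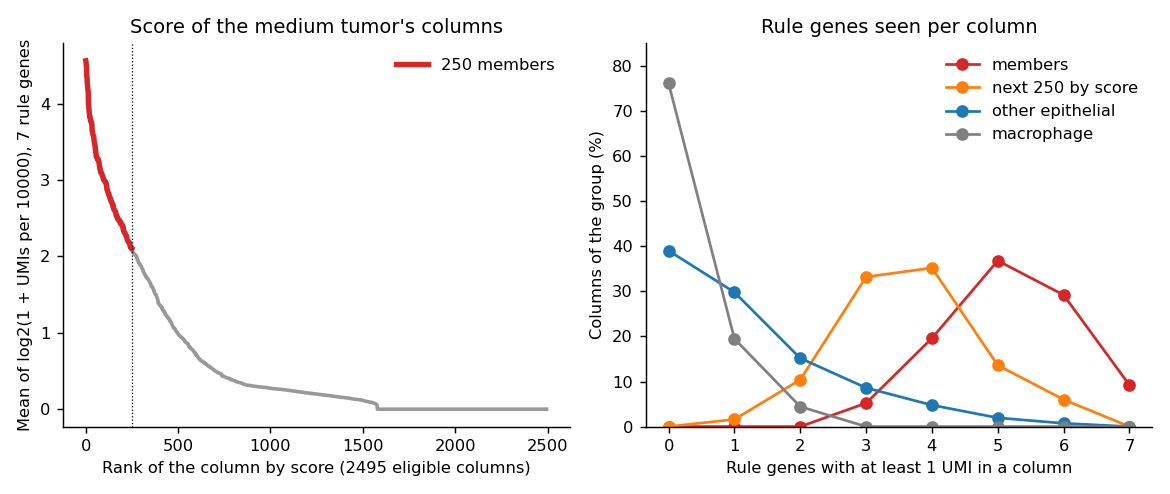
The left panel plots the score against the rank of the 2495 eligible columns, with the 250 members in red and the limit as a dotted line. The right panel plots the percentage of columns in each group against the number of rule genes seen. The score runs through the limit without a gap, and members peak at 5 rule genes where other epithelial columns peak at 0.

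The label of carcinoma cells was checked against markers. All 250 members had UMIs for at least 5 of the 11 epithelial markers (median 9), and their median of macrophage genes was 1. Epcam, an epithelial adhesion molecule, stood at 2183 CPM in members (95% interval 2109 to 2258) and at 1008 CPM (993 to 1024) in other epithelial columns. The duct keratin Krt19 stood at 2835 CPM against 1621 CPM. Prom1, which marks subsets of carcinoma cells, stood at 194 CPM against 59.9 CPM. These 3 genes were thus present at or above the level of the other epithelial columns. Of 32 acinar genes in the table, 21 had no UMI in the members. Cela1, an elastase, was the acinar gene that passed the minimum count, with 439 CPM against 95.3 CPM, and made up most of the list's sum of 472 CPM. Of 16 endocrine genes, 11 had no UMI in the members, and all 16 together came to 3.29 CPM. Whether a column carried the mutant alleles was not examined.

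The members held 1517948 UMIs in all, with a median of 4936.5 UMIs and 1819.5 genes per column. Other epithelial columns were somewhat deeper, with a median of 6142.5 UMIs and 2180 genes. The macrophage columns had a median of 3638 UMIs. Of the barcodes, 5 occurred in the tables of both tumors, and 0 of these were members. Scrublet, a doublet caller, called 0 columns, a result that cannot be read as absence of doublets, and no column was removed. Among the 5% of columns with the highest doublet scores were 8 members.

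The Reg genes were seen in most members but at very different counts. Reg1 had 0 to 223 UMIs per member with a median of 17. Reg3b had 0 to 206 with a median of 10, and Reg3g had 0 to 100 with a median of 9. Their summed levels were 4187 CPM (4085 to 4291), 3341 CPM (3249 to 3434) and 2284 CPM (2209 to 2361). In other epithelial columns the same genes stood at 109, 84.6 and 76.6 CPM. Free RNA in the droplets gives a low share of columns with a UMI in cells that do not use a gene. After every column was thinned to 2500 UMIs, 92.4% of members had a Reg1 UMI, 83.2% a Reg3b UMI and 85.2% a Reg3g UMI. The macrophage columns gave 4.42%, 1.77% and 1.77%, and the other epithelial columns 12.5%, 9.82% and 11.8%. Without thinning, the shares for Reg1 were 93.6% of members, 6.19% of macrophage columns and 22.2% of other epithelial columns. Other epithelial columns thus lay between members and macrophage columns for all 3 genes.

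Tff3 had the widest range of the rule genes, from 0 to 1047 UMIs per member, with a median of 8. It had none in 43 members and gave 33.8% of the UMIs of all rule genes. Its level was 5691 CPM (5572 to 5813) in members and 231 CPM in other epithelial columns. Spink4 had a median of 1 UMI and a highest value of 196, with a level of 567 CPM against 49.97 CPM. Ly6k had a median of 1.5 UMIs and a highest value of 29, with a level of 619 CPM against 41.9 CPM. Aadac had no UMI in 145 members and at most 8 in any, with a level of 136 CPM against 14.5 CPM. After thinning, 73.6% of members had a UMI of Tff3, 52.4% of Ly6k, 34.8% of Spink4 and 25.2% of Aadac. The corresponding shares of macrophage columns were 7.08%, 2.65%, 1.77% and 0%.

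**Figure D2:**
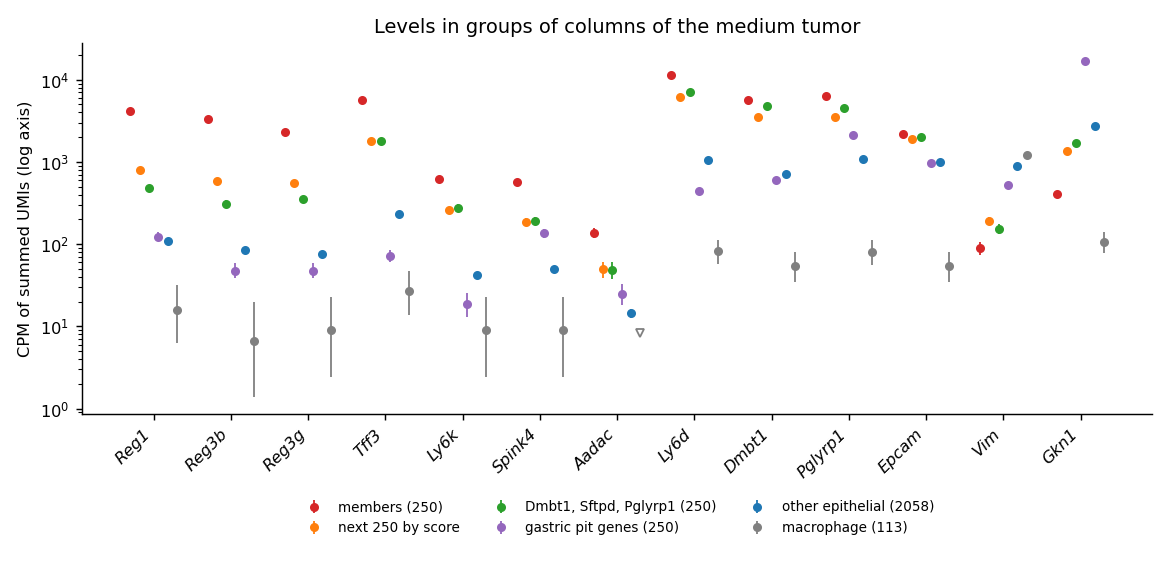
Each point is the level of a gene in CPM of summed UMIs on a log axis, in 6 groups of columns of the medium-size tumor, and bars are exact 95% Poisson intervals. An open triangle marks the upper limit where a group had no UMI. The 250 members, in red, lie above the other groups for the 7 rule genes that chose them and for Ly6d, and below them for Vim. For Gkn1 they lie below the other epithelial groups.

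To give each rule gene a level in columns that it did not help to choose, the score was rebuilt 7 times from the other 6 genes. Every gene remained higher in the 250 columns chosen without it. The ratio to the remaining epithelial columns was 28.3 for Reg3b (95% interval 26.8 to 29.9), 25.5 for Reg1 (24.3 to 26.8) and 22.2 for Reg3g (20.9 to 23.6). For the genes outside the Reg cluster it was lower, at 9.55 for Ly6k (8.65 to 10.5), 8.82 for Spink4 (8.0 to 9.72), 7.97 for Tff3 (7.69 to 8.26) and 7.01 for Aadac (5.76 to 8.51). Each of these choices shared between 217 and 240 columns with the members. Because Reg1, Reg3b and Reg3g move together, 2 of them were still in the score when the third was left out. The rule was also chosen with earlier results of these data known, so a left-out gene was not picked independently and these ratios are a description.

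Ly6d, a lipid-anchored surface protein of the same family as Ly6k, was not in the score. It had 0 to 361 UMIs per member with a median of 48.5, and 99.2% of members had a UMI. Its level was 11522 CPM (11352 to 11694) in members and 1044 CPM (1028 to 1060) in other epithelial columns, a ratio of 11.04 (10.8 to 11.3). After thinning, 98.8% of members and 37.2% of other epithelial columns had a Ly6d UMI, against 23.01% of macrophage columns, whose level was 82.6 CPM. Ly6d and Ly6k lie near each other on chromosome 15, at chr15:74762056-74763620 and chr15:74796874-74799986 on the minus strand. Of 24 annotated genes in this Ly6 region, 8 had no UMI in the members. With 10 CPM added to both levels, which damps ratios of low genes, 4 were at least 2-fold higher: Ly6d, Ly6k, Ly6c1, at 331 against 73.2 CPM, and Ly6a, at 2204 against 911 CPM. Of these, Ly6k is a rule gene that chose the columns. Over all 7290 genes with at least 200 UMIs, 2.43% were at least 2-fold higher. The region was counted without that minimum, and 16 of its genes were under 10 CPM in the members. At lower levels and without the added CPM, Lynx1 stood at 25.03 against 8.19 CPM, a ratio of 3.06 (2.07 to 4.42), and 2010109I03Rik at 23.1 against 9.97 CPM, a ratio of 2.31 (1.56 to 3.35). Lypd2 had 4 UMIs in each group, a ratio of 10.7 (1.99 to 57.5). Ly6c1 is uncertain, since it shares a run of 188 identical bases near its 3′ end with Ly6c2, and Ly6a shares 75 with Ly6c1. Ly6e, in the same region, stood at 1638 against 1031 CPM, short of 2-fold. Psca, a stem cell antigen gene of the region, was lower, at 231 against 355 CPM, a ratio of 0.652 (0.584 to 0.727). Gpihbp1 had 1 UMI in the members, a ratio of 0.129 (0.00323 to 0.739).

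Across the whole transcriptome the members differed from other epithelial columns in a limited set of genes. Among 7290 genes with at least 200 UMIs in both groups together, 177 (2.43%) were at least 2-fold higher in members and 261 (3.58%) at least 2-fold lower. The scale is log2 of the ratio of CPM + 10, whose median over all genes tested was -0.11. With median-of-ratios scaling, which moves that median to 0, the split was 244 higher and 208 lower. Since the 7 rule genes chose the columns, every count and ratio of this contrast describes the members.

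Many genes of secreted defence were high in the members. Of 17 such genes tested, 9 were at least 2-fold higher and 0 lower, with a median log2 ratio of 1.31. Dmbt1, a secreted scavenger protein that binds bacteria, had a UMI in 98.8% of members and stood at 5731 CPM against 711 CPM, a ratio of 8.06 (7.84 to 8.29). Pglyrp1, which recognises bacterial cell walls, had a UMI in every member and stood at 6384 against 1094 CPM. Pigr, the receptor that carries IgA across epithelia, stood at 363 against 39.7 CPM, and Duox2, an oxidase that makes hydrogen peroxide at mucosal surfaces, at 150 against 29.05 CPM. Lcn2, which captures bacterial iron carriers and was named after its value was seen, stood at 1499 against 373 CPM. Other genes of the list were not higher, among them C3, with 88.9 against 88.0 CPM, and Slpi, with 118 against 204 CPM. In macrophage columns the list summed to 9113 CPM, most of it from Saa3, Slpi and Chil3, whereas Dmbt1 was at 53.6 CPM and Pglyrp1 at 80.4 CPM there.

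Goblet cell and trefoil genes gave a mixed picture. Of 13 tested, 4 were higher, including the rule genes Tff3 and Spink4, and 0 were lower. Fcgbp, a component of intestinal mucus, stood at 109 against 12.2 CPM, and Tff2 at 905 against 296 CPM. The trefoil genes are neighbours on chromosome 17, and the third of them, Tff1, stood at 1642 against 1919 CPM. Defining goblet cell genes were nearly silent in the members. Muc2, the main gel-forming mucin of goblet cells, had 1 UMI, Atoh1, their lineage factor, had 0, and Zg16 had 0. Muc3, a membrane mucin, stood at 632 against 89.7 CPM, a ratio of 7.05 (6.49 to 7.66).

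Enzymes that handle foreign compounds and retinoids were another group. Of 22 tested, 11 were higher, Aadac among them, and 3 lower, with a median of 1.12. The glutathione transferases Gsta3, Gsta1 and Gsta4 stood at 813, 663 and 2319 CPM in members against 144, 166 and 682 CPM. Gsta1 is uncertain, since its 3′ end shares 93 identical bases with that of Gsta2. Cbr1, a carbonyl reductase, stood at 377 against 81.7 CPM. The 3 lower genes, named after their values were seen, were Aldh3a1, Akr1c12 and Akr1c13, with 5.93, 7.25 and 8.56 CPM in members against 37.5, 29.4 and 44.7 CPM. All 9 Aldh3a1 UMIs of the members came from 1 column.

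The remaining genes among the 20 with the highest ratio were of many kinds. Mmp7, a matrix protease that also activates defensins in the gut, stood at 1630 against 215 CPM, and Lrg1, a secreted glycoprotein of inflammation, at 397 against 47.2 CPM. Ttr, a carrier of thyroid hormone and retinol-binding protein, stood at 654 against 118 CPM. Tstd1, Wfdc1, Sprr2a3, Plet1, Napsa, Pzp, Tmem54, Ecm1 and Vsig2 had ratios between 4.98 and 9.50. In macrophage columns Napsa stood at 143 CPM and Lrg1 at 346 CPM, against 105 and 397 CPM in members. Sprr2a3 shares 227 identical bases with Sprr2a1 and Sprr2a2 and is uncertain. Pf4, the platelet chemokine, stood at 169 CPM (149 to 191) in members, 20.8 CPM in other epithelial columns and 1860 CPM in macrophage columns. C1qb, a defining macrophage gene, stood at 10.5 CPM in members, 14.95 CPM in other epithelial columns and 4034 CPM in macrophage columns. The whole macrophage list summed to 439 CPM in members, 281 CPM in other epithelial columns and 36966 CPM in macrophage columns. Of its 3 genes tested, Cd14 was higher, at 275 against 123 CPM, and 1 of its 11 genes had no UMI in the members. The part of macrophage RNA in the Pf4 and Cd14 values was not tested.

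Genes of mesenchymal change were the clearest group on the lower side. Of 13 tested, 10 were at least 2-fold lower in members and 0 higher, with a median log2 ratio of -1.63. Vim, the mesenchymal intermediate filament, had a UMI in 19.2% of members and in 68.0% of other epithelial columns, and stood at 88.9 against 882 CPM, a ratio of 0.101 (0.0845 to 0.119). Lgals1, a galectin, stood at 318 against 2133 CPM, Inhba, a subunit of activin, at 13.8 against 112 CPM, and Hmga2, a chromatin protein of embryonic cells, at 34.9 against 213 CPM. Fn1 stood at 1100 against 947 CPM. The fibroblast list moved the same way, with 2 of 4 tested genes lower (Dcn and Col1a2) and a sum of 86.3 against 239 CPM. Of the 1907 Dcn UMIs of other epithelial columns, 424 came from 1 column. Against columns with at least 6 epithelial markers, the log2 ratio of Dcn went from -1.57 to -0.51 and that of Col1a2 from -1.03 to -0.48, while that of Vim was -3.09 and that of Inhba -1.69. The part of fibroblast RNA in these values was not tested beyond that comparison.

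Gastric pit cell genes were lower as well. Of 12 tested, 6 were lower and 1 higher, with a median of -0.98. Gkn1 and Gkn2, secreted gastrokines of the stomach surface, stood at 407 and 151 CPM in members against 2741 and 902 CPM, and Gkn3 at 296 against 1238 CPM. Cldn18, a tight junction gene of the stomach, had 4 UMIs in the members, or 2.64 CPM, against 51.2 CPM. Ctse, an aspartic protease, was the gene of the list that was higher, at 2325 against 773 CPM. Gkn1 was unequally spread, with a UMI in 54.0% of members.

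Other genes among the 10 lowest included Cldn6, a claudin of embryonic epithelium, at 20.4 against 222 CPM, and Apob, the apolipoprotein of lipid particles, at 27.7 against 248 CPM. Cdkn2a, which encodes cell cycle inhibitors, stood at 52.7 against 383 CPM. Cpe and Dcun1d5 had ratios of 0.152 and 0.169. Of the 11 epithelial markers, Cldn3 and Spint2 were higher and the keratin Krt7 was lower, at 698 against 1476 CPM.

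Cell cycle genes had a lower median, though most of them lay within the 2-fold limits. Of 18 tested, 0 were higher and 3 at least 2-fold lower (Rrm2, Cenpa and Ube2c), with a median of -0.70 against -0.11 over all genes. With the score over Reg1, Reg3b and Reg3g alone, Cenpa had -0.79 and Ube2c -0.09. Mki67 stood at 17.8 CPM (11.7 to 25.9) against 21.9 CPM (19.7 to 24.3). Of 23 transcription factors, Xbp1, a factor of secretory cells, was higher at 178 against 56.7 CPM, Ovol1, a repressor of mesenchymal genes, was higher at 40.2 against 9.85 CPM, and Trp53 was lower at 38.9 against 96.0 CPM. Of 17 genes of interleukin-22, interleukin-6 and STAT3 signalling, 0 were higher and 1 lower, Il33, a cytokine of epithelial nuclei, at 25.0 against 91.5 CPM. Stat3 stood at 102 against 71.6 CPM and its target Socs3 at 119 against 73.6 CPM. Il22ra1, the specific chain of the interleukin-22 receptor, had 1 UMI in the members, so its level could not be compared at this depth.

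Of the other lists, antigen presentation had 3 of 10 genes higher (H2-D1, H2-T23 and H2-K1, with log2 ratios of 1.10, 1.03 and 1.01), and the whole list summed to 1434 CPM in members, 959 CPM in other epithelial columns and 18523 CPM in macrophage columns. With the score over Reg1, Reg3b and Reg3g alone, these 3 genes fell short of 2-fold, at 0.82, 0.88 and 0.77. The secretory pathway had 2 of 18 higher (Xbp1 and Ssr4), pancreatic duct genes 2 higher (Ambp and Car2) and 1 lower of 14, enterocyte genes 3 higher (Phgr1, Cdh17 and Dgat2) and 2 lower of 10, squamous and basal genes 3 higher and 2 lower of 8, and progenitor genes 1 higher and 2 lower of 7. Granulocyte genes had 1 of 3 higher, the lactoferrin gene Ltf. The immediate early, red blood cell, endothelial and mesothelial lists had 0 of 12, 4, 3 and 2 genes past 2-fold in either direction. The single B cell gene tested, Jchain, was lower, with a log2 ratio of -1.05, which was -0.79 without the other epithelial column that held 76 of its 286 UMIs. No gene of the T and NK cell, dendritic, mast cell or endocrine lists reached 200 UMIs.

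**Figure D3:**
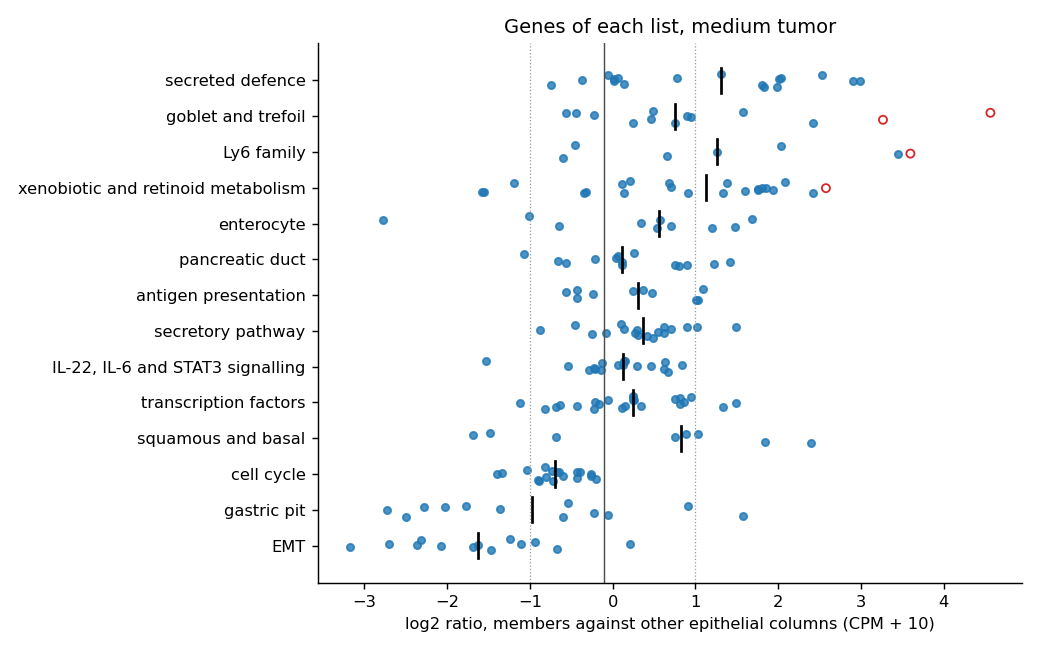
Each point is a tested gene of a list, placed by its log2 ratio of CPM + 10 in the 250 members against the 2058 other epithelial columns. Open red circles are rule genes, black bars list medians, dotted lines the 2-fold limits and the grey line the median of all genes (-0.11). Apart from the rule genes, Ly6d (3.45) in the Ly6 family and Dmbt1 (2.99) in secreted defence lie furthest to the right in their lists, and 10 of 13 EMT genes lie beyond the left limit.

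The same genes changed gradually with the score over most of its range. Ranked by score, the 50 highest members had 14248 CPM of Ly6d and the members ranked 201 to 250 had 9613 CPM. Columns ranked 351 to 500, outside the members, still had 5337 CPM, and those ranked 1001 to 1500 had 212 CPM. Dmbt1 went from 7014 CPM in the 50 highest to 3160 CPM at ranks 351 to 500 and 229 CPM at ranks 1001 to 1500. Vim ran the other way, from 55.9 CPM in the 50 highest to 192 CPM at ranks 351 to 500 and 1108 CPM at ranks 1001 to 1500. The columns ranked 1001 to 1500 had a median of 9631.5 UMIs, against 4752.5 in the 50 highest. At the lowest ranks, 1501 to 2308, Ly6d and Dmbt1 were not lower still, at 239 and 249 CPM, and Vim was not higher, at 996 CPM. These 808 columns, with a median of 5330 UMIs, hold the 803 columns with a score of 0, which are tied and ordered by barcode. The part of depth in the order of the low ranks was not tested.

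**Figure D4:**
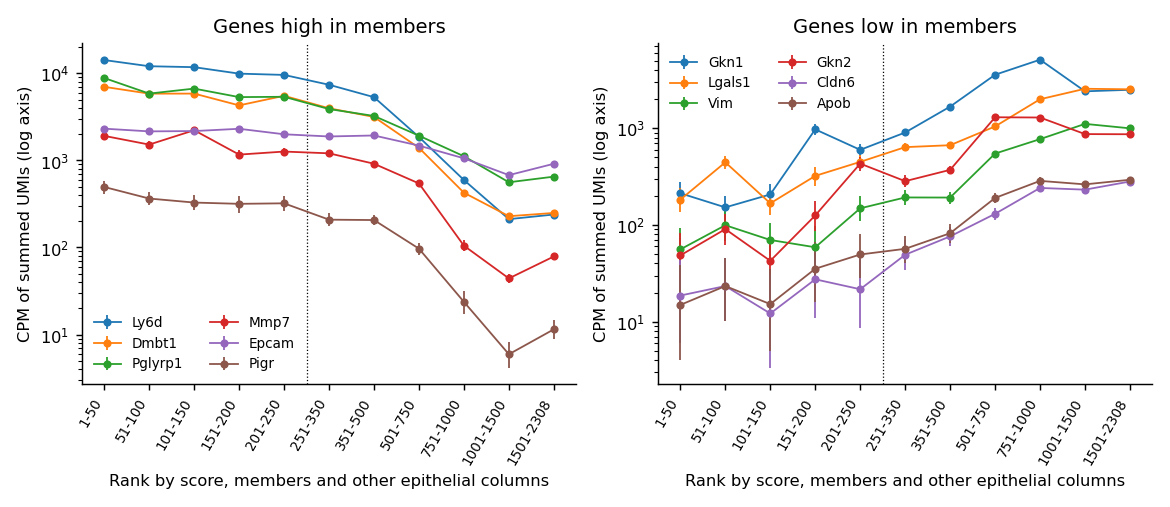
Levels in CPM of summed UMIs on a log axis are plotted against rank by score over members and other epithelial columns, with exact 95% Poisson intervals. The dotted line marks the limit of the members. The last bin of 808 columns holds the 803 tied columns with a score of 0. Ly6d, Dmbt1, Pglyrp1, Mmp7, Epcam and Pigr lie lower beyond the limit than in the 50 highest members, are lowest at ranks 1001 to 1500 and lie higher again at ranks 1501 to 2308, whereas Gkn1, Lgals1, Vim, Gkn2, Cldn6 and Apob lie higher beyond the limit than in the 50 highest members.

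Members fell into groups led by different rule genes. A Reg gene had the most UMIs in 168 members (Reg1 in 96, Reg3b in 50 and Reg3g in 22), Tff3 in 76 and Ly6k or Spink4 in 6. After thinning, Spearman's rho over the 250 members was 0.59 between Reg3b and Reg3g and 0.54 between Reg1 and Reg3b. It was 0.41 between Tff3 and Spink4 and -0.43 between Reg3b and Tff3. These columns share 1 library, and choosing columns on the sum of the genes lowers such correlations, so they are given as a description.

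Tff3-led and Reg-led members differed in few other genes. Of 1014 genes tested, 5 (0.493%) were at least 2-fold higher and 12 (1.18%) at least 2-fold lower in Tff3-led members, the rule genes included. Tff3 and Spink4 were among the 5, and Reg1, Reg3b and Reg3g among the 12. Hbb-bs was also among the 12, and most of its UMIs in the members came from 1 column. Spink4 stood at 1356 CPM in Tff3-led and 167 CPM in Reg-led members, a ratio of 8.13 (6.84 to 9.71). Lgals2, a galectin of the gut, stood at 747 against 263 CPM, and Sprr1a, a cornified envelope gene, at 282 against 77.2 CPM. Of the 141 Sprr1a UMIs of Tff3-led members, 80 came from 1 column, without which the level was 125 CPM, short of 2-fold. Mmp7, Lrg1 and Lcn2 were on the Reg side, at 803, 194 and 783 CPM in Tff3-led and 2113, 506 and 1909 CPM in Reg-led members. Ly6d, with 13494 against 10333 CPM, and Dmbt1, with 5284 against 5940 CPM, differed by less than 2-fold. Since the groups were formed by the leading rule gene, and since these genes were named after their values were seen, the values are a description.

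When the 7 rule genes were left out of the counts and the columns were clustered, 135 members (54.0%) lay in 1 cluster of 292 columns and 98 in another of 228 columns. With a resolution of 1.2 or with 20 principal components, the largest share in 1 cluster was 120 and 144 members. At a resolution of 0.4, 234 members (93.6%) lay in 1 cluster of 519 columns, of which they made up 45.1%. Members of the first cluster had 14506 CPM of Ly6d and 4498 CPM of Dmbt1. All other members together had 8222 and 7094 CPM. Reg1 was at 4699 CPM in the first group and 3621 CPM in the second, and Tff3 at 7963 against 3179 CPM.

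The members were also set against columns chosen by a score of the same form over Dmbt1, Sftpd and Pglyrp1. Of its 250 highest columns, 149 (59.6%) were members. Set against the 250 highest non-members by that score, 11 of 2044 genes tested (0.538%) were at least 2-fold higher in members and 9 (0.44%) lower, the genes of both scores included. Among the 11 were the 7 rule genes, which are high in members by construction. The others were Hbb-bs, Tff1, Sprr2a3 and Sptssb. Ly6d was high in both sets, at 11522 CPM in members and 7166 CPM in the non-members, of which 92% had a Ly6d UMI. Ly6k stood at 619 against 278 CPM. Sptssb, a subunit of the first enzyme of sphingolipid synthesis, stood at 395 against 186 CPM. Tff1 stood at 1642 against 682 CPM, but 1 member held 494 of its 2493 UMIs, and without that column its level of 1329 CPM was short of 2-fold, with a log2 ratio of 0.95. Gkn1 stood at 407 against 1713 CPM and Gkn3 at 296 against 1179 CPM. Hbb-bs, a haemoglobin gene, stood at 177 against 29.7 CPM, but 1 member held 241 of its 269 UMIs and the level without that column was 18.5 CPM. Leaving out such columns was decided after the values were seen.

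The gastric pit genes Gkn1, Gkn2, Muc5ac and Tff1 chose a different set. Of its 250 highest columns, 4 (1.6%) were members. Against the 250 highest non-members, 109 of 2272 genes tested (4.8%) were at least 2-fold higher in members and 98 (4.31%) lower. Ctla2a, a protease inhibitor, stood at 4586 against 105 CPM, Mmp7 at 1630 against 36.1 CPM, Ly6d at 11522 against 444 CPM and Lcn2 at 1499 against 68.5 CPM. Aqp5, a water channel, stood at 32.9 against 430 CPM, and Ifitm1, an interferon-induced membrane gene, at 32.9 against 463 CPM.

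The large-size tumor did not choose the members, and the same rule was applied to it. In proportion to its size it took 136 of 1533 columns, and these were compared with 433 other epithelial columns of that table. This table is shallow. The chosen columns had a median of 904.5 UMIs and the other epithelial columns 1958. A chosen column had a UMI for a median of 2 rule genes, 4 had 5 or more, and 62 had UMIs of at least 4 epithelial markers. Since the 2 tables differ in depth, ratios were taken within each.

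Reg genes, Tff3, Spink4 and Aadac were high in the chosen columns of the large-size tumor, but Ly6k and Ly6d were not. With each gene left out of the score in turn, the ratio was 61.7 for Reg3b (49.9 to 77.1), 31.1 for Reg3g (21.7 to 45.8), 13.0 for Reg1 (11.1 to 15.3), 10.1 for Tff3 (8.71 to 11.7), 64.7 for Spink4 (44.3 to 97.8) and 12.1 for Aadac (5.24 to 29.6). For Ly6k it was 0.380 (0.137 to 0.853). With all 7 genes in the score, Ly6k stood at 84.6 CPM in the chosen columns and 107 CPM in the others, a ratio of 0.793 (0.398 to 1.44). Ly6d stood at 212 against 174 CPM, a ratio of 1.22 (0.799 to 1.80). Of 118 columns of the large-size tumor with a Ly6k UMI, 11 (9.32%, 4.75% to 16.1%) also had a UMI of Reg1, Reg3b or Reg3g. Over all 1533 columns of that tumor, 306 had a UMI of these Reg genes. In the medium-size tumor thinned to 1000 UMIs per column, 117 of 195 columns with a Ly6k UMI (60%, 52.8% to 66.9%) had a Reg UMI. The share over all thinned columns was not computed. Columns of the large-size tumor were not thinned and held up to 11294 UMIs (median 1037), so the depths are not alike. With 1 tumor of each size, this difference was not tested. When double the number of columns was taken, the log2 ratio in the large-size tumor went from -0.30 to 0.65 for Ly6k and from 0.27 to 1.56 for Ly6d.

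Other genes of the members followed in part. Of 817 genes tested in the large-size tumor, 62 (7.59%) were at least 2-fold higher in the chosen columns and 136 (16.6%) lower. Of the 20 genes highest in members after the rule genes, 9 were at least 2-fold higher there on the log2 scale of CPM + 10, and 8 had an interval of the ratio above 1. One of them, Mmp7, had all its 11 UMIs in 1 chosen column. Plet1, Ecm1 and Vsig2 had 0 UMIs in the chosen columns and 28.1, 23.3 and 34.9 CPM in the others, and a count of 0 allows up to 21.2 CPM. The upper limits of their ratios were 0.986, 1.21 and 0.785, under a 2-fold higher level, whereas a 2-fold lower level was not detectable at this depth. Dmbt1 stood at 1537 against 402 CPM, a ratio of 3.82 (3.23 to 4.51), Pigr at 592 against 77.6 CPM and Muc3 at 790 against 123 CPM. Pglyrp1 stood at 56.4 against 37.8 CPM, a ratio of 1.49 whose interval ran from 0.602 to 3.24. Of the 10 lowest genes, 5 were at least 2-fold lower there too, among them Vim, at 91.7 against 712 CPM, and Lgals1, at 134 against 801 CPM. Apob, Gkn1 and Gkn2 went the other way, at 423, 451 and 663 CPM in the chosen columns against 61.1, 165 and 318 CPM. The Gkn2 value rested on 1 chosen column with 51 of its 94 UMIs, without which the level was 306 CPM, and Gkn1 without its highest column stood at 334 CPM. Pf4 depended on the comparison, with a ratio of 2.73 (0.874 to 7.34) against other epithelial columns and 0.220 (0.0803 to 0.483) against all 1327 other eligible columns. Among the rule genes and the 20 highest and 10 lowest genes with UMIs in both groups, Ly6k was the other one whose ratio moved across 1, to 1.16 (0.584 to 2.08).

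**Figure D5:**
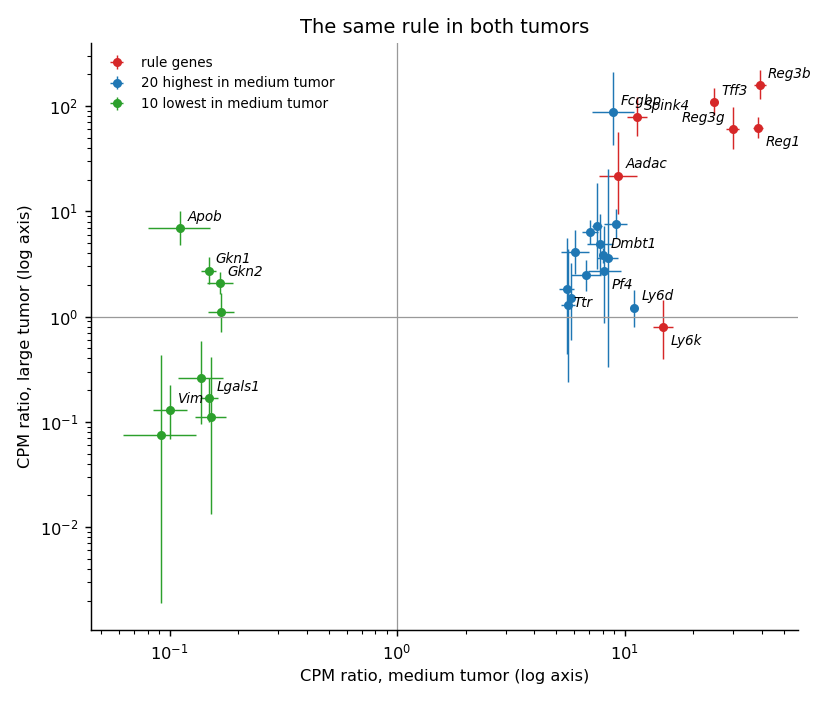
Ratios of CPM between the columns of the rule and other epithelial columns are plotted for the medium-size tumor (x axis) against the large-size tumor (y axis), both on log axes, with 95% intervals from counting. Genes without a UMI in either group of the large-size tumor are left out. Reg3b, Tff3, Reg1, Reg3g, Spink4 and Fcgbp lie at the upper right, Ly6d and Ly6k near a ratio of 1 in the large-size tumor, and Apob, Gkn1 and Gkn2 at the upper left.

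The chosen columns of the large-size tumor also carried genes that the members lacked. Zg16, a lectin of goblet cell mucus and of acinar granules, stood at 4809 CPM (4455 to 5184) and was found in 22 of the 136 columns, whereas the medium-size tumor had 0 UMIs in all its columns, which allows up to 0.148 CPM. Fabp1, Fabp2 and Apoa1, lipid handling genes of enterocytes, stood at 15428, 2884 and 1276 CPM, and the members had 0 UMIs of each. All columns of the medium-size tumor together had 6, 17 and 39 UMIs of them. Over all columns of the large-size tumor Fabp1 stood at 2213 CPM, with a UMI in 457 columns. The rule genes divided among these columns. The 22 columns with Zg16 had 34423 CPM of Tff3, 9686 CPM of Spink4, 4719 CPM of Fcgbp and 2931 CPM of Muc2. The 114 columns without it had 888, 699, 16.4 and 279 CPM. Reg3b showed the opposite, with 298 CPM in the columns with Zg16 and 7856 CPM in those without. Ly6d had 0 UMIs in the columns with Zg16, which allows up to 149 CPM, and stood at 247 CPM in those without. This division was made after the values of Zg16 were seen.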

How the data were processed

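Cells of 2 KPC tumors, 1 medium and 1 large, were captured with 10x Chromium 3′ v2 chemistry after enzymatic dissociation. The authors aligned reads and counted UMIs per gene and barcode with CellRanger and deposited unnormalized counts. The genome build is mm10 per the submitters' processing notes, and the CellRanger version is not given in the sources used here. The tables hold 27775 gene rows, and 39 symbols on more than 1 row were left out of counts of genes.

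UMIs were summed over columns and given as counts per 1000000 (CPM). Ratios carry exact conditional binomial intervals, sums exact Poisson intervals and shares exact binomial (Clopper-Pearson) intervals, at the 95% level. A count of 0 is read as up to 3 counts. PCR copies are removed by the UMIs, and intervals and limits cover counting error only. Genes with at least 200 UMIs in the compared groups together were tested against a 2-fold limit with 10 CPM added. The fold calculation was tested on simulated data. Python 3.11.15 (numpy 2.4.6, scipy 1.17.1, pandas 2.3.3), Scrublet in scanpy 1.11.5, Biopython 1.88 for alignments and Seurat 5.3.0 in R 4.3.3 (10 principal components, resolution 0.8) were used.

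Members and 32 gene lists were chosen with earlier results of these data known. Genes named are the rule genes, the 20 highest and 10 lowest others, Ly6d, Epcam, Krt19 and Prom1, and from each list up to 4 members past 2-fold and the most abundant. Any other was named after its values were seen. Alternatives changed the score, the number of columns, the comparison group, the CPM added, the minimum count and the normalization, and left out likely doublets or deep columns. An allele of the mice and a gene among the 10 lowest are not reported here.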

Additional observations from a re-analysis of the deposited data

Results flagged for a closer look

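Of 116 genes named from the medium-size tumor and compared in both tumors, 17 had intervals of the ratio on opposite sides of 1. The share over all genes was not computed, so this count describes the named genes only. The ratio is that of the columns of the rule to other epithelial columns, and the values are log2 ratios with 10 CPM added. The difference between tumors was not tested, because each tumor is 1 sample.

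Lower in the medium-size and higher in the large-size tumor were 6 genes. Apob had -2.78 and 2.61, Gkn1 -2.72 and 1.40, Gkn2 -2.50 and 1.04, and Gkn3 -2.03 and 0.40. Of the UMIs in the chosen columns of the large-size tumor, 1 column held 51 of 94 of Gkn2 and another 60 of 124 of Gkn3. Without the first the Gkn2 value there was -0.06, and without the second the Gkn3 value was -0.52. The reductases Akr1c13 and Akr1c12 had -1.56 and 1.26, and -1.19 and 0.90.

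Higher in the medium-size and lower in the large-size tumor were 11 genes. Of the Ly6 family, Ly6a had 1.26 and -1.63 and Ly6e 0.66 and -1.57. Ctse had 1.58 and -0.72, Ltf 1.31 and -2.94, Plet1 2.35 and -1.93 and Vsig2 2.16 and -2.17. Smaller values in the medium-size tumor were those of S100a14, with 1.03 and -0.78, Hbb-bs, with 0.61 and -0.81, Cd44, with 0.43 and -0.92, Onecut2, with 0.26 and -0.64, and Fn1, with 0.21 and -1.65. Ltf, Plet1 and Vsig2 had 0 UMIs in the chosen columns of the large-size tumor, where a count of 0 allows up to 21.2 CPM, so their values there depend on the 10 CPM added. In the medium-size tumor 1 member held 241 of the 269 Hbb-bs UMIs, and without that column the Hbb-bs value was -2.11. In the large-size tumor 1 of the other epithelial columns held 51 of their 161 Hbb-bs UMIs, and without that column the value was -0.31. The counts of 17, 11 and 6 include Hbb-bs, Gkn2 and Gkn3. Leaving out these columns was decided after the values were seen. Against all 1327 other eligible columns of that tumor the intervals for Plet1 and Vsig2 reached above 1, to 1.03 and 1.32.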

How the results depend on the processing

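No paired analysis was possible because the 4 technical replicates of each tumor are pooled in 1 table and cannot be told apart, and for the same reason no replicate could be left out. The counts of 177 higher and 261 lower genes stayed within 1.5 times under 13 of 16 other settings. With 1 CPM added they were 288 and 571, with 50 CPM added 79 and 69, and with a minimum of 1000 UMIs, which tested 2493 genes, 77 and 138. The 86 listed genes past 2-fold were 52 with 50 CPM added. Of 82 named genes past 2-fold, 0 changed direction, 56 stayed past 2-fold in all 17 settings and 26 fell below it in at least 1. The last of the 17 settings, which kept the members of the 2 main clusters, was chosen after seeing the data and gave 202 and 335. The cluster with most members held 234 at a resolution of 0.4. With double the number of columns in the large-size tumor, 65 genes were lower in place of 136, and the cause was not tested. Depth limits genes under about 2 CPM in the members and under about 21 CPM in the chosen columns of the large-size tumor.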

Other observations

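Some of the members' genes were unevenly spread over columns. Of the 450 Gkn3 UMIs of the members, 121 came from 1 column, and 30% of members had any. Of the 2493 Tff1 UMIs, 494 came from 1 member, and of the 1007 Gsta1 UMIs, 161 did. Dcun1d5 was uneven outside the members, where 1 of the other epithelial columns held 1147 of 15412 UMIs.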
